A study of Homo sapiens with 18 samples.

Results

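Long introns, here introns of at least 10000 nucleotides (10 kb), were taken from a table of intron excision in HEK293 cells, a human embryonic kidney line. The length alone chose them, as the deposited log10 length raised to a power of 10. They numbered 1951 of the 21782 introns in the table (8.96%), in 1243 of 4163 genes. They were set against the 17707 introns of 150 to under 10000 nucleotides, called medium introns here, and the 2124 introns under 150 nucleotides were not used. Cells had received 4-thiouridine, a uridine analogue built into RNA made after its addition, at 500 µM for 7.5, 15, 30, 45 or 60 min, and labelled RNA was biotinylated and captured on streptavidin. There were 3 libraries per labelling time, from cells with no other treatment, and 3 libraries of total RNA without that capture, 1 each by poly(A) selection, by RNase H depletion and by Ribo-Zero depletion of ribosomal RNA. The cells are 1 established line. The labels do not say whether the 3 libraries of a time are separate cultures. The p-values therefore reflect only the spread between these libraries, which may be technical. Of the markers looked up, VIM (vimentin) had 228 to 1040 TPM (transcripts per 1000000) across libraries, and NEFM, a neurofilament reported in this line, reached 2.4 TPM. Of markers of other cell types PTPRC, CD3E and ALB stayed at or under 0.32 TPM, the haemoglobin gene HBA1 had 0 to 18.8 TPM with a median of 3.76, and the collagen gene COL1A1 had 0.26 to 5.78 TPM. EPCAM, an epithelial marker, had 17.4 to 62.0 TPM, and the kidney factor PAX2 reached 10.0 TPM.

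An intron is cut out by the spliceosome once RNA polymerase has passed its 3′ splice site, so a long intron keeps its 2 splice sites apart for longer than a short one. Most introns begin with GT and end with AG. The minor spliceosome, a rarer form, removes a small class whose 5′ end typically reads GTATCC or ATATCC. Intron excision often takes place while the polymerase is still on the gene, and the distance left to the gene's 3′ end then bounds how long the RNA can stay attached.

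Splice-site letters were read from transcripts of GENCODE release 29 (GRCh38) whose exon runs through the site, which gave the 5′ site of 231 long introns, 230 of them starting GT, and the 3′ site of 129, all ending AG. These sites are those that some transcript skips, so they are not a sample of all long introns. Of the 231, 3 began with GTATCC (1.30%), against 23 of 2714 medium introns that began with GTATCC or ATATCC (0.848%), and 28 of 3333 sites over the table. The 2 printed here are shown for their low 5′ splice-site scores and because both were far below the median long intron at 60 min. Each line gives the last 3 exon bases and the first 10 intron bases, with intron bases 1 to 6 in capitals.
SSU72: actGTATCCcagc
EIF4G3: acaGTATCCtttt
The next 3 are among the highest-scoring 5′ sites of those long introns whose letters were found and that share no splice site with another intron, printed for contrast in the same layout.
MRPL42: acgGTAAGTtttc
YWHAE: acgGTGAGTtggg
YWHAB: acgGTGAGTgcgg

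The SSU72 intron (chr1:1480383-1500152, minus strand, 19.8 kb, positions here and below in hg19) had a 5′ score of -2.15 and an excised share of 0.463, 0.331, 0.314, 0.536 and 0.515 at 7.5, 15, 30, 45 and 60 min. SSU72 is a phosphatase of the RNA polymerase II tail, and the end of its intron reads as follows, with the last 2 intron bases in capitals.
SSU72 3′ site: tccttaactcccatgtgtAGcta
The EIF4G3 intron (chr1:21415707-21502667, minus strand, 87.0 kb) scored -3.87 and had 0.316, 0.383, 0.418, 0.267 and 0.285. EIF4G3 is a translation initiation scaffold. The SSU72 and EIF4G3 introns therefore stood at 0.515 and 0.285 at 60 min, where the median was 0.815 over the 231 long introns with letters and 0.844 over all long introns. Such sites are few. The 23 medium introns with either start had a median of 0.691 at 60 min, with a range of 0.227 to 0.896, against 0.753 for all 2714 medium introns with letters. The contrast sites reached 0.818 (MRPL42), 0.880 (YWHAE) and 0.941 (YWHAB) at 60 min. The search for this start was chosen after the values were seen.

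The excised share of an intron is the fraction of reads at its splice sites that are spliced, as the authors' mean over 3 replicates, kept with more than 5 reads in each. It carries no SD and its read depth is unknown, so differences between intron classes are descriptions without a test. Every one of the 1951 long introns had a value at all 5 times. Long introns were excised about as far as medium ones throughout the hour. Over the 5 labelling times, shortest first, their median excised share was 0.532, 0.594, 0.715, 0.812 and 0.844, and that of medium introns 0.537, 0.572, 0.693, 0.805 and 0.843. Long minus medium was thus -0.00508, 0.0226, 0.0217, 0.00717 and 0.00128, small beside the spread over introns: the quartiles at 60 min were 0.772 and 0.9003 for long introns, and 0.756 and 0.901 for medium ones.

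**Figure D1:**
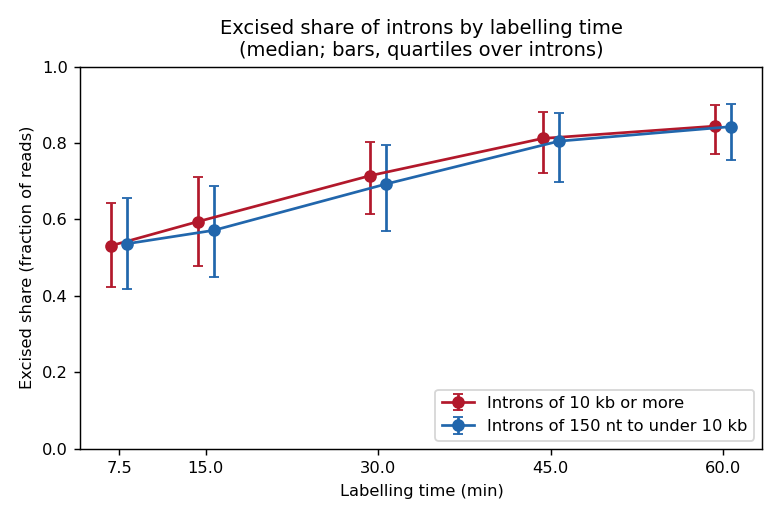
Median excised share (fraction of reads, y axis) of 1951 long introns (red) and 17707 medium introns (blue) against labelling time in minutes, with bars for the quartiles over introns. The medians are 0.844 (long) and 0.843 (medium) at 60 min, and 0.532 (long) and 0.537 (medium) at 7.5 min, and the bars overlap at every time.

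The classes differed more in their tails. Of long introns 18 (0.923%) were under 0.5 at 60 min, against 556 medium introns (3.14%). The 10th percentile at 30 min was 0.515 for long and 0.439 for medium introns. At the other end 25.2% of long and 25.6% of medium introns had reached 0.9 by 60 min. Early steps also went down less often: 27.6% of long introns had a lower value at 15 than at 7.5 min, against 39.0% of medium introns. Between 45 and 60 min it was the other way round, with 33.2% of long and 27.2% of medium introns lower at 60 min. Over the whole interval 19 long introns (0.974%) were lower at 60 than at 7.5 min, against 5.22% of medium introns. The authors sorted introns by excision into 3 classes, and long introns held 40.8% fast, 46.1% medium and 13.1% slow, against 38.0%, 43.7% and 18.4% of medium-length introns.

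Within the long introns, the longer ones stood higher at the start and no higher at the end. The 86 introns of 100 kb or more had medians of 0.625, 0.692, 0.776, 0.821 and 0.816 over the 5 times. The 190 introns of 50 to 100 kb had 0.844 at 60 min and 0.585 at 7.5 min. The 675 introns of 20 to 50 kb had 0.848 and 0.544 at these times, and the 1000 introns of 10 to 20 kb had 0.842 and 0.507. Just under the limit, the 4332 introns of 3 to 10 kb had 0.838 and 0.506. The median gain of an intron from 7.5 to 60 min was 0.18 at 100 kb or more, 0.25 at 50 to 100 kb, 0.29 at 20 to 50 kb and 0.31 at 10 to 20 kb. Of the introns of 100 kb or more, 44 (51.2%) were lower at 60 than at 45 min, against 31.2% at 10 to 20 kb. Across long introns Spearman's rank correlation of length with excised share was 0.02 at 60 min and 0.17 at 7.5 min (n = 1951). In medium introns it was -0.009 and -0.13 (n = 17707). The introns share libraries, and the read counts behind each value are not known.

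**Figure D2:**
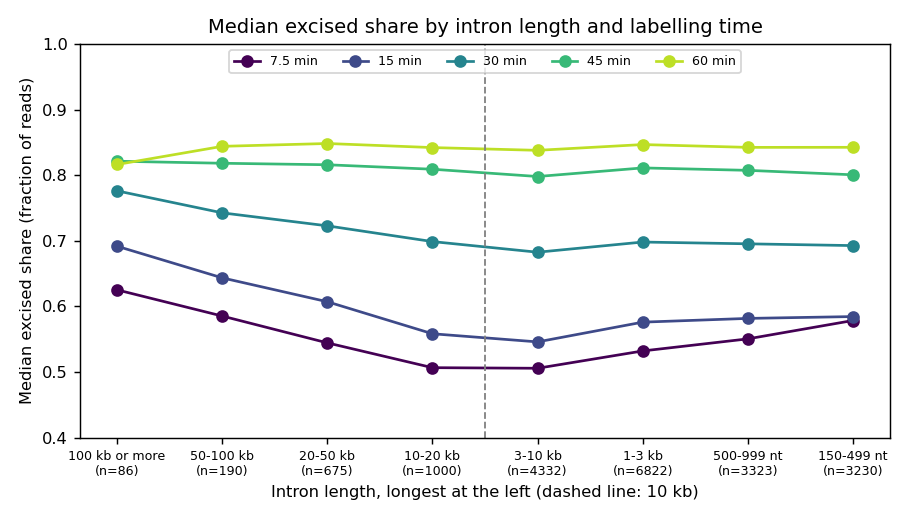
Median excised share (y axis, drawn from 0.4) by intron length class, longest at the left, with 1 line per labelling time and the number of introns under each class; the dashed line marks 10 kb. The 7.5 min line is at 0.625 for 100 kb or more and at 0.507 for 10 to 20 kb, and the 60 min line lies between 0.816 and 0.848 in every class.

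Long introns also lay elsewhere in their genes. The deposited distances to the transcription start and the poly(A) site (DisTSS and DisPA) had medians of 31.0 and 71.3 kb for long introns, and 18.2 and 21.6 kb for medium ones. On the plus strand these columns ran against their names: among genes of at least 6 introns, DisTSS grew in the direction of transcription in 21.0% of 680 plus-strand genes and in 77.8% of 663 minus-strand genes. DisPA shrank that way in 29.4% and 86.3%. DisPA exceeded the intron's own length in all 1951 long introns. Distances were therefore measured in GENCODE release 29, from the intron's 3′ end to the gene's 3′ end and from the gene's start to the intron's 5′ end, for the 1871 long and 17364 medium introns that matched 1 annotated intron of their gene by exact length. The median long intron lay 67.1 kb before the gene's 3′ end and 20.7 kb after its start, against 20.02 and 21.8 kb for medium introns. Of the matched long introns 641 (34.3%) were first introns, that is, first in no fewer of the annotated transcripts that hold them than not, against 9.82% of medium ones.

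At like distances from the gene's 3′ end, long introns stood below medium ones. At 100 kb or more from the end, 632 long introns had medians of 0.618 at 7.5 min, 0.777 at 30 min and 0.865 at 60 min, against 0.640, 0.804 and 0.885 for 1594 medium introns. At 30 to 100 kb, 818 long introns had 0.503, 0.707 and 0.841, against 0.524, 0.736 and 0.858 for 4870 medium introns. At 10 to 30 kb, 298 long introns had 0.442, 0.640 and 0.820, against 0.494, 0.683 and 0.842 for 5438 medium introns. At 3 to 10 kb, 97 long introns had 0.454, 0.567 and 0.793, against 0.533, 0.633 and 0.820 for 3562 medium introns. Only 26 long introns ended within 3 kb of the gene's end, with 0.480, 0.578 and 0.780, against 0.620, 0.603 and 0.794 for 1900 medium introns. Weighted by the number of long introns per bin, long minus medium was -0.0305, -0.0207, -0.0320, -0.0197 and -0.0196 at the 5 times, so the sign of the pooled difference turned at 15, 30, 45 and 60 min. The bins are of GENCODE distances and were chosen after the values were seen. Bins of the deposited DisPA gave -0.0320, -0.0308, -0.0502, -0.0390 and -0.0332. The direction of DisPA is in doubt on the plus strand, and whether it counts the intron itself is not known. Bins of GENCODE distance from the gene's start, added likewise, kept the pooled signs, with -0.0133, 0.0207, 0.0292, 0.0196 and 0.0112. Within 3 kb of the start, 624 long introns had 0.826 at 60 min and 0.690 at 30 min, against 0.768 and 0.597 for 2351 medium introns, while at 100 kb or more from the start 370 long introns had 0.882 and 0.763, against 0.897 and 0.779 for 1789 medium introns.

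**Figure D3:**
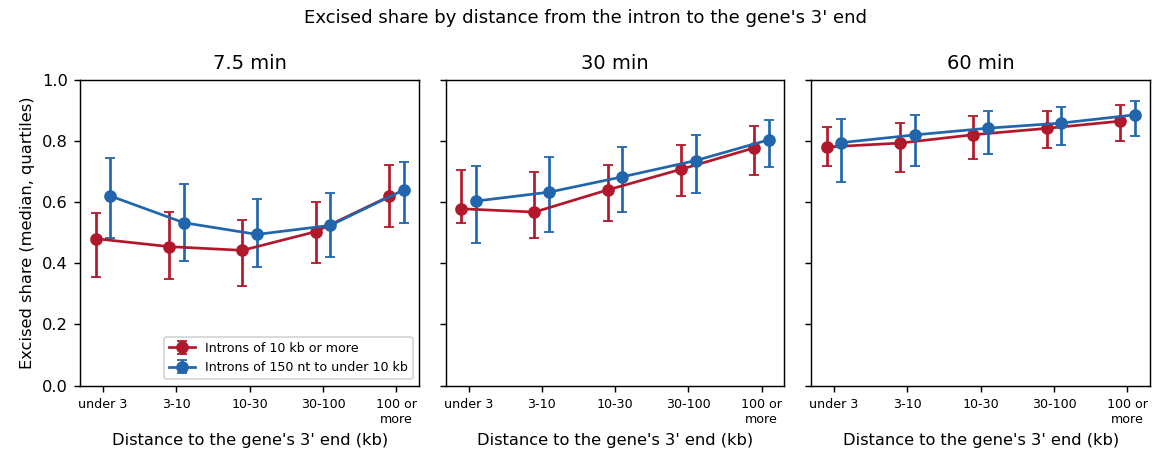
Excised share (median and quartiles over introns, y axis) of long introns (red) and medium introns (blue) by distance in kb from the intron to the gene's 3′ end, at 7.5, 30 and 60 min. In each of the 15 pairs of points the long introns are lower, by the most within 3 kb of the end at 7.5 min (0.480 and 0.620).

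Distance to the 3′ end and excised share moved together among long introns. Over the 5 times Spearman's rank correlation was 0.45, 0.48, 0.41, 0.27 and 0.21 (n = 1871, introns that share libraries and genes). In medium introns it was 0.00 at 7.5 min, 0.22 at 15 min and 0.35 at 30 min (n = 17364). Distance from the start showed 0.23 at 45 min and 0.04 at 7.5 min among long introns, against 0.40 and -0.0004 among medium ones. Held to 1 distance band the length classes drew together: at 100 kb or more from the end, the 229 introns of 10 to 20 kb had 0.600 at 7.5 min, the 242 of 20 to 50 kb had 0.625, the 101 of 50 to 100 kb had 0.647 and the 60 of 100 kb or more also had 0.647. At 30 to 100 kb from the end these 4 classes had 0.496, 0.513, 0.515 and 0.513 (n = 421, 309, 71 and 17). At 60 min the 60 introns of 100 kb or more stood at 0.816, against 0.872 for the 10 to 20 kb class at the same distance.

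Comparing within genes gave the same side. In the 966 genes that had both kinds, the gene's median long intron was below its median medium intron, with median differences of -0.0151, -0.0165, -0.0307, -0.0198 and -0.0212 over the 5 times. The long introns were lower in 59.8% of these genes at 60 min and in 55.1% at 7.5 min. The quartiles of the difference over genes were -0.0772 and 0.0353 at 60 min, so genes lay on both sides of 0. Medium introns of long-intron hosts were themselves further excised than those of other genes at 30 min (0.751, n = 6121, against 0.661, n = 11586) and at 60 min (0.871 against 0.826), while at 7.5 min they stood at 0.536 and 0.537. They lay further from the gene's end, at a median of 41630 nucleotides, against 13880.

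The nearest medium intron on either side gave pairs of neighbours, among introns sharing no splice site. An upstream neighbour lies further from the gene's 3′ end than its long intron, by at least the length of that intron. A downstream neighbour lies nearer to that end. Length and position therefore cannot be told apart in these pairs. Against the nearest medium intron upstream (642 pairs), the long intron stood at a median of 0.505 and its neighbour at 0.590 at 7.5 min, with a median difference of -0.0694 and the long intron lower in 65.0% of pairs. By 60 min this difference was -0.0144, and 56.7% of long introns were lower. Against the nearest medium intron downstream (1145 pairs) the difference was -0.00526 at 7.5 min, with 51.4% lower, -0.0331 at 30 min and -0.0225 at 60 min, with 57.0% lower. These pairs were chosen after the values were seen.

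**Figure D4:**
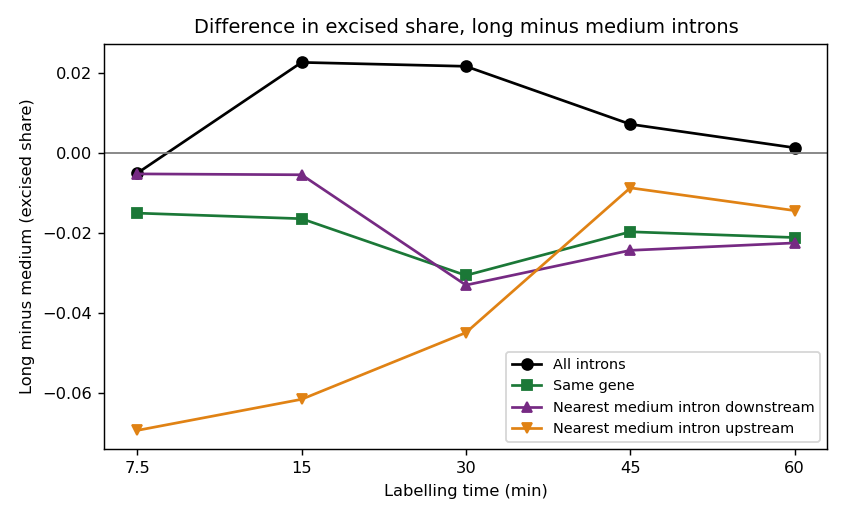
Difference in excised share, long minus medium introns (y axis), against labelling time in minutes: medians of all introns (black), median difference within 966 genes (green), and against the nearest medium intron downstream (purple, 1145 pairs) and upstream (orange, 642 pairs). The black line is above 0 from 15 min on, at 0.0226 at 15 min and 0.0217 at 30 min, and the 3 others are below 0 at every time.

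Long introns of 1 gene differed among themselves. In the 111 genes with at least 3 long introns that share no splice site, the gap between the highest and the lowest was 0.154 in the median gene at 60 min and 0.250 at 7.5 min, over 436 introns in all.

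The splice sites of long introns scored higher. The median 5′ MaxEnt score was 9.14 in long and 8.73 in medium introns, and the median 3′ score 9.31 and 8.66. At 100 kb or more the medians were 9.72 and 10.2, and the polypyrimidine tract score was 35.5, against 31.0 over long introns and 28.0 over medium ones. The scores hardly followed excision within the class: the rank correlation with the excised share of long introns ranged from 0.04 to 0.06 for the 5′ score and from -0.0005 to 0.07 for the 3′ score (n = 1951). Low scores were rarer, with 75 long introns (3.84%) under a 5′ score of 5, against 6.67% of medium introns. The 8 long introns with a 5′ score under 0 had a median of 0.637 at 60 min, and 111 such medium introns had 0.722. These sets overlap the GTATCC set above: the 3 long introns with that start all scored under 0. Of 44 medium introns with letters and a score under 0, 17 began with GTATCC or ATATCC. The cuts at 0 and 5 were set after the values were seen.

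Base composition varied less. Median GC was 0.402 in long and 0.414 in medium introns, with quartiles of 0.381 and 0.431 against 0.367 and 0.476. The rank correlation of GC with excised share among long introns was -0.01 at 7.5 min, -0.22 at 30 min and -0.16 at 60 min; among medium introns it was 0.18, -0.28 and -0.25. The exon before a long intron was richer in GC (0.509, against 0.471 before medium introns), while the exon after it was alike (0.449 and 0.457).

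More long introns were alternative by the authors' classes, 246 (12.6%) against 5.14% of medium introns, and more shared a splice site with another intron of the table (12.6% and 6.30%). Alternative long introns ended about as high as constitutive ones: they had 0.854 at 60 min and 0.507 at 7.5 min, against 0.842 and 0.537 for constitutive long introns. Alternative medium introns had 0.755 and 0.456, against 0.846 and 0.539 for constitutive medium ones. First introns among the long ones had 0.832 at 60 min and 0.699 at 30 min, against 0.851 and 0.723 for the others. No long intron was marked as hosting a snoRNA, against 161 medium introns, and 2 hosted a miRNA, against 55. Long introns were nearly all of protein-coding genes (1923), with 14 in lncRNAs and 14 in pseudogenes. Long introns are a smaller share here (8.96%) than in GENCODE release 29, where 14.9% of the 91758 annotated introns of these genes reach 10 kb. The release differs from that of the authors and counts alternative introns, and the cause was not tested.

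The longest long intron was in PDE4D, a cAMP phosphodiesterase (chr5:58511795-59064072, minus strand, 552 kb), with 0.682, 0.573, 0.623, 0.733 and 0.804 at 7.5, 15, 30, 45 and 60 min. It ends at a splice site that another PDE4D intron shares. The ERBB4 intron (414 kb) of this receptor tyrosine kinase had 0.569, 0.737, 0.466, 0.625 and 0.592. It was the lowest of the 5 longest at 60 min. The TTC28 intron (323 kb) had 0.805 at 7.5 min, 0.757 at 45 min and 0.916 at 60 min. Its 5′ site is printed for its weak score of 6.33, with intron bases 1 to 6 in capitals.
TTC28: aagGTAGAAattt
The first intron of GPC6, a cell-surface heparan sulphate proteoglycan (318 kb), had 0.574 at 7.5 min, 0.880 at 45 min and 0.827 at 60 min. That of AUTS2 (299 kb) had 0.793 at 60 min and 0.542 at 7.5 min.

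At 60 min 12 long introns stood at 1, that is, with no unspliced read counted. Among those sharing no splice site, the longest 5 were in TNIK (90.3 kb), MAST2 (52.8 kb), MYO1D (52.6 kb), ARID1B (33.9 kb) and BCAS3 (25.5 kb). TNIK and MAST2 encode kinases, MYO1D a myosin motor, and ARID1B a subunit of the BAF chromatin remodeller. At 7.5 min they had 0.889, 0.739, 0.889, 0.582 and 0.673. Among introns sharing no splice site, the highest at 7.5 min were in ZEB1, a repressor of epithelial genes (142 kb, 0.949), RSBN1L (39.4 kb, 0.941), VPS13B, a lipid transfer protein (57.7 kb, 0.940), CTNNA1, the adherens junction protein alpha-catenin (28.4 kb, 0.934), and PTPRM, a receptor phosphatase (114 kb, 0.930). At 60 min these had 0.983, 0.962, 0.889, 0.951 and 0.802, so VPS13B and PTPRM ended below their starting value.

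The lowest at 60 min among introns sharing no splice site were GUSBP18 (35.4 kb, 0.271), EIF4G3 (87.0 kb, 0.285), HOXB3 (16.1 kb, 0.414), HOXC4 (15.1 kb, 0.440) and CABIN1 (15.4 kb, 0.443). GUSBP18 is a pseudogene with near copies, and the HOX loci hold overlapping genes, so reads there can belong to other transcripts. HOXB3 and HOXC4 encode homeobox transcription factors, and CABIN1 binds calcineurin. HOXB3 had 0.178, 0.198, 0.461, 0.369 and 0.414 over the 5 times, and the EIF4G3 intron is the one of the GTATCC set above. Nearest the length limit, CRYZL1, WDR4 and RPN2, just above 10 kb, had 0.763, 0.561 and 0.791 at 60 min, and ST7L, HAPSTR1 and DNAJC2, just below it, had 0.661, 0.802 and 0.877.

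Among the 1243 host genes, 835 had 1 long intron in the table, 257 had 2 and 151 had 3 or more. APP, the amyloid precursor protein, had the most, with 10, 3 of which end at 1 shared site. Its long introns spanned 0.790 to 0.966 at 60 min and 0.355 to 0.800 at 7.5 min, with medians of 0.867 and 0.590, against 0.880 and 0.585 for its 9 medium introns. LRBA, a vesicle trafficking protein, had 9, with 0.921 at 60 min and 0.709 at 7.5 min, against 0.908 and 0.804 for 28 medium introns. EIF4G3 had 9, with 0.840 and 0.536, against 0.902 and 0.608 for 20 medium introns. In EIF4G3 the 38.1 kb intron next downstream of the GTATCC intron had 0.927 at 60 min and 0.634 at 7.5 min, while the GTATCC intron had 0.285 and 0.316. ASCC3, a helicase subunit, had 9, with 0.899 and 0.576, against 0.880 and 0.614 for 19 medium introns. EXOC4, a subunit of the exocyst, had 8 and no medium intron, with values between 0.845 and 1 at 60 min and between 0.637 and 0.892 at 7.5 min.

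Of 8 genes known for recursive splicing, in which a long intron is removed in pieces, CADM1 and PDE4D were measured. The 264 kb CADM1 intron had 0.476 at 7.5 min, 0.817 at 45 min and 0.724 at 60 min, and an 11.1 kb intron of the same cell adhesion gene had 0.906 at 60 min and 0.464 at 7.5 min. Of 23 giant genes at common fragile sites 8 were measured, and 6 had long introns, 23 in all. Their median was 0.886 at 60 min and 0.712 at 7.5 min, against 0.925 and 0.7115 for the medium introns of the measured genes. Of the 23 long introns 8 were in EXOC4. In NBEA, a trafficking scaffold, the 97.8 kb first intron had 0.669 at 60 min and 0.583 at 7.5 min, and a 10.9 kb intron had 0.932 and 0.884. In PTPRG, a receptor phosphatase, the 187 kb first intron had 0.716 and 0.619. Regulators of small GTPases had long introns in 13 of 30 genes measured, with 0.825 at 60 min and 0.567 at 7.5 min over 24 introns, against 0.881 and 0.623 for their medium introns. Chromatin regulators had them in 27 of 44 genes, with 0.853 and 0.528 over 53 introns, against 0.881 and 0.522. None of 65 ribosomal protein genes and 4 of 53 respiratory chain genes had a long intron in the table.

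The TPM table, which gives each library, allowed tests over genes. A gene's primary transcript is an isoform spanning its whole locus, and its unspliced share is primary TPM as a percent of primary plus mature TPM. Long-intron hosts began level with genes that had medium but no long introns in the table (medium-only genes). Hosts had a lower unspliced share in every library of the later times. Medium-only genes can still hold long introns that were not measured. GENCODE release 29 lists 13717 introns of 10 kb or more in the genes of the table, which holds 1951. All 1243 hosts and 2816 of 2819 medium-only genes passed the filter on low values, a mean of 1 TPM for mature and 0.1 TPM for primary transcripts. The median host had 33.7%, 33.7% and 33.4% unspliced in the 3 libraries at 7.5 min, against 35.0%, 32.6% and 33.2% for medium-only genes. At 15 min hosts had 26.7%, 28.6% and 33.0%, against 30.6%, 30.6% and 35.3%. At 30 min hosts had 17.99%, 17.5% and 21.6%, against 25.2%, 21.9% and 26.0%. Hosts were lower than medium-only genes in every one of these 6 libraries. At 45 min hosts had 7.85%, 13.1% and 15.0%, against 13.2%, 15.6% and 18.2%. At 60 min they averaged 9.35% ± 3.04, against 12.4% ± 2.17 for medium-only genes (SD over 3 libraries each). Replicate 1 was the lowest at 45 and at 60 min in both sets of genes.

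The host value at 60 min minus that at 7.5 min was -24.25 points (two-sided exact permutation test over 3 and 3 libraries, p = 0.1, the smallest that 20 arrangements allow). Over the 5 times, shortest first, host minus medium-only was -0.003 ± 1.25, -2.74 ± 1.00, -5.34 ± 1.65, -3.65 ± 1.45 and -3.07 ± 0.869 points (SD over 3 libraries each). Each later time was below 7.5 min with no overlap between libraries (two-sided exact permutation test, p = 0.1 for each of the 4, again the smallest possible). In total RNA, with 1 library per method, hosts had 1.43% (poly(A)), 2.27% (RNase H) and 1.61% (Ribo-Zero), against 1.27%, 2.07% and 1.67% for medium-only genes.

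**Figure D5:**
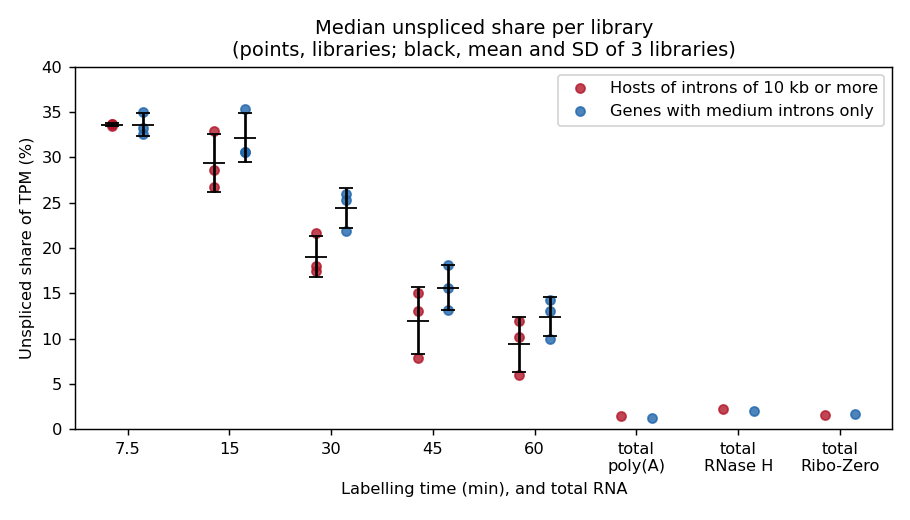
Median unspliced share of TPM (percent, y axis) in each library, by labelling time in minutes and in total RNA. Red marks 1243 hosts of long introns, and blue 2816 genes with medium but no long introns in the table. Black marks give the mean and SD of 3 libraries. Both are at 33.6% at 7.5 min, and at 30 min hosts are at 19.04% and medium-only genes at 24.4%.

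Gene by gene, the ratio of primary to mature TPM was lower at 60 than at 7.5 min in 1198 of 1243 hosts and higher in none, by limma with Benjamini-Hochberg adjustment at 0.05 over 13866 genes. Of all genes 62.8% were lower and 1.09% higher, and of the 2816 medium-only genes 2253 (80.0%) were lower and 68 higher. The median log2 change was -2.30 in hosts, -1.83 in medium-only genes and -1.81 over all genes. At 15 min limma called no gene (0% either way). The unadjusted limma p was under 0.05 in 77 of 1243 hosts and in 1355 of all 13866 genes, a smaller share of hosts than of all genes. At 30 min 609 hosts were lower and 0 higher, where 23.1% of all genes were lower and 3.22% higher. At 45 min 1130 hosts were lower and 0 higher, where 55% of all genes were lower and 2.24% higher. With the ratio centred on each library's median, 388 hosts were lower and 56 higher, where 2065 of all 13866 genes were lower and 1775 higher. The median log2 change was then -0.46 in hosts and 0.03 over all genes.

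EFNB2, a ligand of Eph receptors, had the largest fall among hosts. Its unspliced share was 6.39%, 12.6% and 13.6% at 60 min, against 80.4%, 82.2% and 81.0% at 7.5 min (log2 change of the ratio -5.21, SE 0.43, limma adjusted p = 4.08e-06). The 2 sets of libraries lie far apart. The excised share of its 22.0 kb first intron was 0.831 at 60 min and 0.279 at 7.5 min. KLHL15, a substrate adaptor of a ubiquitin ligase, had 3.24%, 5.93% and 6.62% at 60 min, against 55.4%, 58.7% and 60.4% at 7.5 min, and FAM83D, a spindle protein, had 7.34%, 13.9% and 14.1%, against 74.0%, 74.1% and 79.1%. TMED5, a cargo receptor of the early secretory pathway, averaged 12.2% ± 3.34 at 60 min against 74.5% ± 3.37 at 7.5 min, and LIN28B, which blocks let-7 maturation, averaged 6.81% ± 3.55 against 58.4% ± 5.26 (SD over 3 libraries each). In the 5 hosts the highest library at 60 min stayed below the lowest at 7.5 min, as the rule that chose them required. SSU72 averaged 17.8% ± 4.05 at 60 min against 25.2% ± 3.13 at 7.5 min (SD over 3 libraries each), and its ratio missed the threshold (limma adjusted p = 0.119).

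Mature TPM moved less. TPM are shares of a library, here of the labelled RNA captured at each time. A lower value is therefore a lower share of that RNA, and does not show less RNA per cell or fewer cells with a transcript. Of 1243 hosts 223 were higher and 73 lower at 60 than at 7.5 min (limma, Benjamini-Hochberg over 16726 genes), where 15.8% of all genes were higher and 4.2% lower. Of medium-only genes 691 were higher and 208 lower. The median log2 change was 0.16 in hosts, 0.32 in medium-only genes and 0.24 over all genes. Under median-ratio scaling these medians were -0.18, -0.02 and -0.05, with 103 hosts higher and 195 lower, where 1295 of all 16726 genes were higher and 1304 lower. The direction of the host median thus depends on the scaling. Earlier contrasts with 7.5 min called fewer: at 15 min 2 hosts were higher and 0 lower (0.0419% and 0.00598% of all genes). The unadjusted limma p was under 0.05 there in 74 of 1243 hosts and in 1481 of all 16726 genes, again a smaller share of hosts. At 30 min 102 were higher and 17 lower (5.69% and 2.84%), and at 45 min 189 were higher and 59 lower (12.3% and 4.77%). Hosts of at least 2 long introns, split off after the values were seen, had 46 of 408 higher and 41 lower. Without 7.5 min replicate 3, 35 hosts and 407 of all 16726 genes were lower, and without 60 min replicate 1, 36 hosts and 416 genes. Without 1 of the 4 other libraries 49 to 70 hosts and 478 to 568 genes were lower. With all libraries 73 hosts and 702 genes were lower, so the calls dropped over all genes too.

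NUDT19, a peroxisomal hydrolase, rose most among hosts, to 142, 104 and 120 TPM at 60 min, against 14.2, 26.2 and 13.9 TPM at 7.5 min (log2 change 2.74, SE 0.23, limma adjusted p = 5.21e-06). EFNB2 had 188, 195 and 179 TPM, against 33.7, 31.0 and 34.7 TPM. The rule that chose the 5 rises and 5 falls required that the libraries of the 2 times do not overlap. FAM83D averaged 105.5 ± 15.7 TPM at 60 min against 19.6 ± 3.18 at 7.5 min, TMED5 53.8 ± 9.27 against 11.9 ± 2.62, and HOXB3 91.1 ± 28.9 against 23.6 ± 17.5 (SD over 3 libraries each). HOXB3 spread most of the 5. The largest fall was in TBCA, a tubulin-folding cofactor, with 56.4, 49.5 and 85.2 TPM at 60 min, against 201, 226 and 336 TPM at 7.5 min (log2 change -1.98, SE 0.32, limma adjusted p = 0.000557). Its unspliced share was 9.17% ± 4.01 at 60 min against 10.8% ± 2.20 at 7.5 min (SD over 3 libraries each) and its ratio did not pass. GPHN, the synaptic scaffold gephyrin, averaged 22.8 ± 5.77 TPM at 60 min against 67.8 ± 7.27 at 7.5 min, LPP, a focal adhesion protein, 41.9 ± 14.2 against 118.5 ± 3.93, and NDUFA12, a subunit of complex I, 29.4 ± 2.40 against 82.0 ± 16.0 (SD over 3 libraries each). The pseudogene GUSBP18 completed the 5, with 26.8 ± 7.41 against 76.0 ± 14.2 TPM. Of the genes with the most long introns, APP fell to 153, 159 and 171 TPM at 60 min, against 322, 308 and 402 TPM at 7.5 min (log2 change -1.08, limma adjusted p = 0.000652), and EXOC4 fell too (-1.40). LRBA (-0.97, limma adjusted p = 0.0721), ASCC3 (-0.56) and EIF4G3 (-0.27) did not pass.

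By list, 42 of 44 chromatin regulators and 29 of 30 small GTPase regulators had a lower ratio at 60 min and none a higher one, beside 62.8% of all genes lower. Mature TPM were higher in 14 of the 44 and 6 of the 30 and lower in 0 and 3, beside 15.8% of all genes higher and 4.2% lower, so the GTPase regulators lay near the share over all genes. Of the 8 fragile-site genes measured, 7 had a lower ratio, and 4 had lower mature TPM and none higher. The ribosomal protein genes, without long introns in the table, had 13 ratios lower and 14 higher, and 54 of 65 had lower mature TPM. Of 53 respiratory chain genes 14 had a lower and 9 a higher ratio, and 34 had lower mature TPM. Both genes measured for recursive splicing had a lower ratio, and neither passed for mature TPM.

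The authors' rate scores, centred per measure, placed hosts as follows against medium-only genes. The median processing score was 0.287 in 1243 hosts and 0.208 in 2819 medium-only genes, with quartiles of 0.166 and 0.415 against 0.058 and 0.351. The degradation score was -0.07 against -0.20, and the synthesis score 0.581 against 0.561. The log2 cytoplasmic to nuclear balance was -0.05 against 0.06, and the polysomal to cytosolic balance -0.39 against -0.09, with quartiles of -0.68 and -0.07 against -0.46 and 0.23. Of the authors' 7 gene clusters, c3 held 46.9% of hosts and 28.5% of medium-only genes, and c1 held 36.8% and 45.8%. These scores come from 1 value per gene without replicates, so no test was made.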

How the data were processed

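Labelled and total RNA of HEK293 cells was sequenced in 18 libraries, and 15 labelled libraries entered the tests. The submitters' processing notes list RSEM 1.2.11, Bowtie 1.0.1 and hg19. The deposited TPM came, per the file headers, from RSEM on GENCODE release 19 with an added whole-locus primary isoform; the excised share is a fraction from bam2ssj junction reads with more than 5 reads in each of 3 replicates, averaged by the authors. No aligner of these reads was named in the sources used here. The deposited intron lengths and distances are log10 values. Splice-site values, rates and fraction balances (log2) are scores from the authors. Depth is unknown, since neither TPM nor fractions carry it; the TPM of a labelled library sum to 999609 to 999721.

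Symbols and gene distances came from GENCODE release 29, matched by gene, strand and exact intron length (21173 of 21782 introns); positions printed are the deposited hg19 ones. Ratios were tested as log2((primary + 0.1)/(mature + 0.1)) and mature values as log2(TPM + 1), which understates changes of low genes, with limma 3.58.1 (trend) in R 4.3.3 over the 15 labelled libraries, after filters of a mean of 1 TPM mature and, for ratios, 0.1 TPM primary. The limma test of the ratio at 60 against 7.5 min was tried on simulated data, and the other tests were not. Adjusted p-values are Benjamini-Hochberg; single values had exact permutation tests in scipy 1.17.1. A host has at least 1 long intron in the table. Named introns were the longest, highest and lowest at 60 min, highest at 7.5 min and nearest the length limit; named genes had the most long introns or the largest changes with libraries that do not overlap. The sequence of the WLS intron was left out, since its letters and deposited score were at odds. Length classes among long introns, the split by first intron, the spread within genes and the pairs of neighbours were chosen after the values were seen. Members, lists and tests were chosen with earlier results of these data known. The 5 columns of exon inclusion levels and the copies per cell were not used. Some sites and genes are not reported here.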

Additional observations from a re-analysis of the deposited data

How the results depend on the processing

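Differences in excised share have no replicate spread, so a shift of 0.01 was taken as a change. At 7.5, 15, 30, 45 and 60 min long minus medium was -0.00508, 0.0226, 0.0217, 0.00717 and 0.00128. With introns of the same genes only it was -0.0151, -0.0165, -0.0307, -0.0198 and -0.0212. In bins of the deposited distance from the poly(A) site, whose direction is in doubt on the plus strand, it was -0.0320, -0.0308, -0.0502, -0.0390 and -0.0332. In bins of GENCODE distance to the gene's end, added after seeing the data, it was -0.0305, -0.0207, -0.0320, -0.0197 and -0.0196. A length minimum of 20000 nucleotides gave 0.0235, 0.0521 and 0.0392 at 7.5, 15 and 30 min, and one of 5000 gave -0.0214, 0.000276, 0.0116 and, at 60 min, -0.00171. With 1 value per gene it was -0.0203 at 7.5 min and 0.00986 at 15 min. At 60 min, introns sharing neither splice site gave -0.00356 and constitutive introns alone, an added alternative, -0.00318. Leaving out first introns gave 0.00951 at 15 min and bins of distance from the gene's start -0.0133, 0.0207, 0.0292, 0.0196 and 0.0112 over the 5 times, both added. The cause was not tested. Taking each time on its own changed nothing, since all introns have all 5 values.

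For the ratio, centring on library medians gave 388 hosts lower, 56 higher and a median of -0.46, where 2065 of all 13866 genes were lower and 1775 higher. Other settings kept 0 hosts higher and 1185 to 1218 lower, where 8661 to 9036 of all genes tested were lower. Leaving out 1 library gave 1140 to 1204 hosts lower, where 7655 to 8485 of all genes were lower. The host medians were then -2.50 to -2.003. Centring by construction removes the common fall. It turned the change of 21 named genes that passed the threshold with or without centring: TBCA (1.51), NDUFA12 (1.31), SSU72 (1.18), WWOX (1.16), LPP (0.85), DIAPH2 (0.77), ERBB4 (0.77), WDR4 (0.71), BCAS3 (0.60), EXOC4 (0.58), MYO1D (0.48), CABIN1 (0.42), VPS13B (0.37), PTPRG (0.20), NBEA (0.16), PTPRM (0.14), AUTS2 (0.13), APP (0.12), GPC6 (0.10), LRBA (0.0847) and PDE4D (0.0463). The change of GPHN and GUSBP18 turned as well, but these genes passed neither with nor without centring. For mature TPM, median-ratio scaling gave 103 hosts higher, 195 lower and a median of -0.18, where 1295 of all 16726 genes were higher and 1304 lower. Leaving out 1 library gave 155 to 185 hosts higher and 35 to 70 lower, with host medians of 0.08 to 0.27. Of all genes 1834 to 2229 were then higher and 407 to 568 lower. With the replicate block (letters of the titles) mature TPM were higher in 359 hosts and lower in 143, where 3666 of all 16726 genes were higher and 1088 lower. The ratio was then lower in 1218 hosts, where 9036 of all 13866 genes were lower. Whether the letters pair the samples is not known. Same-letter deviations at 60 and 7.5 min correlated at 0.27, 0.08 and 0.09 (mature) and at 0.14, 0.08 and 0.05 (ratio). Over all same-letter pairs of libraries the correlations ran from -0.01 to 0.34 (mature) and from -0.02 to 0.22 (ratio).

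The mean over hosts gave 34.9% unspliced at 7.5 min and moved the change of host minus medium-only to -4.42 points, where medians gave -3.07. Without 1 library that change was -3.75 to -2.51, and hosts had 8.08% to 11.03% at 60 min, 33.6% to 33.7% at 7.5 min and a difference of -25.5 to -22.6. Host minus medium-only at 60 min was -3.45 to -2.60 and at 30 min -5.34. Depth limits introns with few reads most, and introns under the authors' read minimum are not in the table.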
